A study of Homo sapiens with 6 samples.

Results

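The genes described here encode nucleolar factors that build ribosomes. They were taken by name from the table of estimated counts per gene, where all 53 names on the list were found among 17013 genes with values, and all 53 were abundant enough to be tested. The RNA came from Y79, an established human retinoblastoma cell line that is known to carry extra copies of MYCN, which encodes a DNA-binding relative of MYC. One group of 3 libraries carried a control shRNA and has the genotype label MYCN wild-type. The other group of 3 libraries carried a MYCN-targeting shRNA and is labelled MYCN knockdown. All 6 libraries are of this 1 line and 1 labelled batch, were made from poly(A) RNA, and are called independent biological replicates in the series text. How many different hairpins were used, and whether the cells were a pool or a clone, is not stated in the labels. An shRNA is a short hairpin RNA that lowers the RNA it matches.

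Ribosomes begin in the nucleolus, where RNA polymerase I makes a long precursor of ribosomal RNA. Small nucleolar particles mark that precursor chemically: box C/D particles guide methyl groups and box H/ACA particles guide the change of uridine to pseudouridine. A large early assembly called the small subunit processome, organised around the U3 RNA, folds and cuts the part that becomes the small subunit, and a separate chain of factors matures and exports the large subunit. Genes of this pathway are long-known targets of MYC proteins, which bind DNA with the partner MAX at the E-box, the palindrome CACGTG.

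The promoters of the genes held that motif in many cases. A window from 250 bases before to 50 bases after a gene's start (RefSeq, GRCh38.p14) was at hand for 45 of the 53 genes, and CACGTG, which reads the same on both strands, lay in a window of 22 of them (48.9%). Among all 10352 tested genes with such a window the share was 12.7%, and among all 27305 genes with one it was 8.8%. Sites also lay close to the start: 20 of the 26 sites of the assembly genes began within 50 bases of it (76.9%), against 593 of 1526 sites of all tested genes (38.9%). A match describes the letters in the window and is no measure of binding. The 8 stretches below are those of the motif-bearing genes with the 5 lowest and the 3 highest fold changes, each at the site nearest to the start and read along the gene's strand, with CACGTG in capitals.
NOL6, chr9:33473894-33473923, minus strand: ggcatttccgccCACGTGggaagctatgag
RRP9, chr3:51941892-51941921, minus strand: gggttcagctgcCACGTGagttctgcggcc
MYBBP1A, chr17:4555340-4555369, minus strand: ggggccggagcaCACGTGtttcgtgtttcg
IMP4, chr2:130342900-130342929, plus strand: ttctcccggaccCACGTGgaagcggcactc
NAT10, chr11:34105602-34105631, plus strand: aatgcgcttgcgCACGTGctgtctaccagt
UTP4, chr16:69132621-69132650, plus strand: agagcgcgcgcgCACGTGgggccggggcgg
NOP10, chr15:34343130-34343159, minus strand: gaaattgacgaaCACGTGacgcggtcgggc
GAR1, chr4:109815781-109815810, plus strand: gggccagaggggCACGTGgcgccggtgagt

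These 8 genes include some of the strongest decreases of the list and also NOP10, which was not called, and GAR1, which rose, and each has the motif between positions -16 and 32 of its start. Over all the assembly genes with a window, the 22 with CACGTG had a median log2 fold change of -0.69, with 20 called lower, 1 higher and 1 not called. The 23 without it had a median of -0.68, with 22 called lower and 1 (UBTF) higher. The medians of these sets lay close together. Among all tested genes, 46.2% of the 1319 with the motif and 36.9% of the 9033 without it were called lower. UTP20, a very large scaffold protein of the processome, shows the motif in its wider setting, 10 bases ahead of the gene start at the end of the 250 bases before it (chr12:101279855-101280104, plus strand, GRCh38.p14).
UTP20: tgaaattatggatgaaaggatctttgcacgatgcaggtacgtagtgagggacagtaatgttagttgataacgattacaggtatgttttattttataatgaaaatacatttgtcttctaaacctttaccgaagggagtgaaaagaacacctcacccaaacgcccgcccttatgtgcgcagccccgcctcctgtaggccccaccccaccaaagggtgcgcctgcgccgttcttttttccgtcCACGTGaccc

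The targeted gene was measured first as a check of the labels. Levels are given as CPM, counts divided by library size and scaled between libraries by the TMM method. MYCN stood at 3046, 3128 and 2876 CPM in control replicates 1, 2 and 3 and at 2413, 2284 and 2195 CPM in MYCN shRNA replicates 1, 2 and 3, so all libraries of the second group lay below all of the first. Its log2 fold change was -0.39 ± 0.043 (SE; edgeR quasi-likelihood test, adjusted p = 8.0e-11).

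Of the 53 nucleolar assembly genes, 50 fell with the MYCN shRNA, 2 rose (UBTF and GAR1) and 1 (NOP10) was not called (edgeR quasi-likelihood test, Benjamini-Hochberg adjusted p under 0.05 over all 12819 genes tested). Over all genes tested, 37.9% were called lower and 38.0% higher. The median log2 fold change of the list was -0.68, with quartiles of -0.88 and -0.44, while the median of all tested genes was 0.00. All 3 MYCN shRNA libraries lay below all 3 controls for the same number, 50 of 53 genes, which was the case for 38.2% of all tested genes. A fall of at least 2-fold was measured for 10 of the 53, against 5.25% of all tested genes. Together the 53 genes held 1.05%, 1.06% and 1.04% of all counts in control replicates 1, 2 and 3. In MYCN shRNA replicates 1, 2 and 3 they held 0.739%, 0.729% and 0.750%. These shares use library size alone, so they depend on the other genes, and the most abundant genes weigh most in them.

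**Figure D1:**
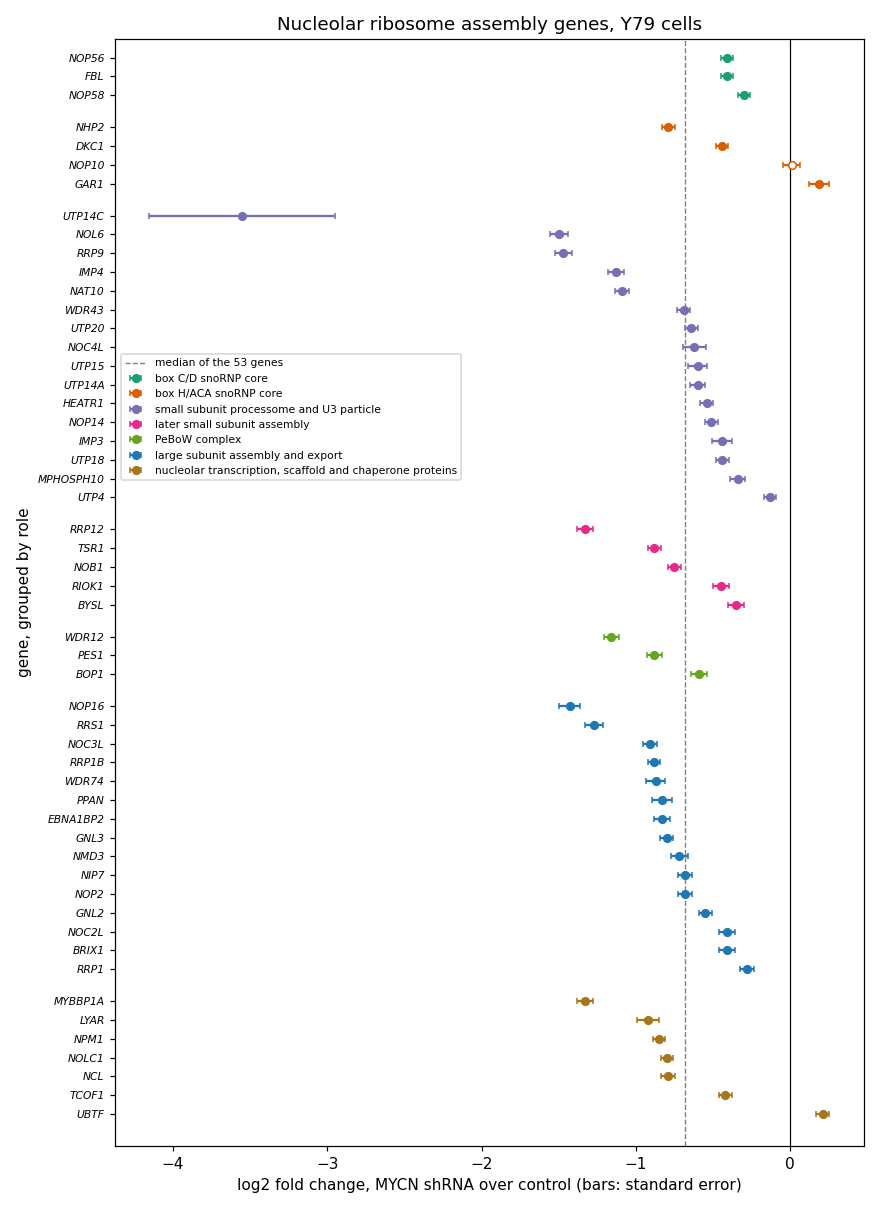
Log2 fold change (MYCN shRNA over control, x axis) of the 53 genes, grouped and coloured by role; points are estimates from 3 against 3 libraries, bars are standard errors, the open point was not called, and the dashed line is the median of the list, -0.68. Almost every point lies left of 0, with GAR1, NOP10 and UBTF at or right of it and UTP14C far to the left with a wide bar.

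**Figure D2:**
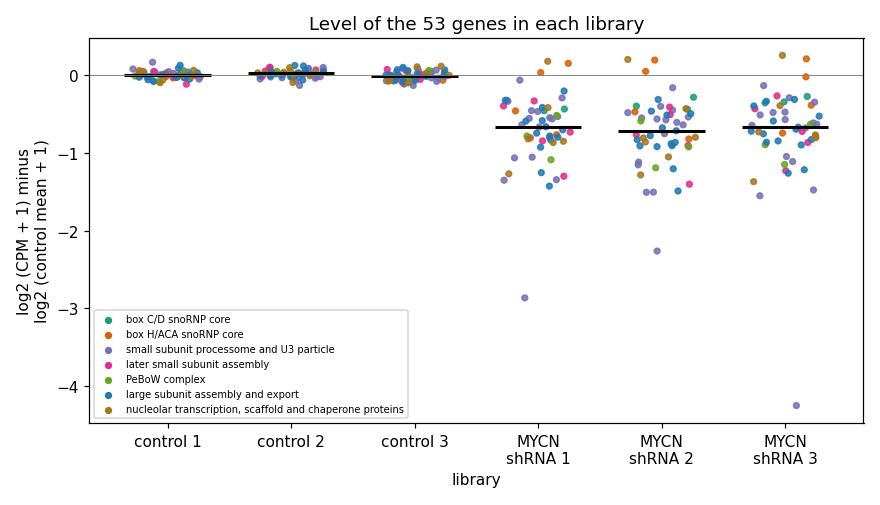
Level of each of the 53 genes in each of the 6 libraries (y axis, log2 of CPM plus 1 minus the log2 of the control mean plus 1); points are genes coloured by role and black lines are the median per library. The 3 controls scatter narrowly around 0 and the 3 MYCN shRNA libraries sit at similar lower medians, with UTP14C the lowest point in each of them.

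Genes of like abundance moved in both directions. The quartiles of abundance of the 53 genes were 6.10 and 7.19 on the log2 CPM scale. In that range 45.9% of all 2238 tested genes were called lower and 36.4% higher, with a median log2 fold change of -0.06. The 27 less abundant assembly genes had a median of -0.72 and the 26 more abundant ones of -0.59.

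**Figure D3:**
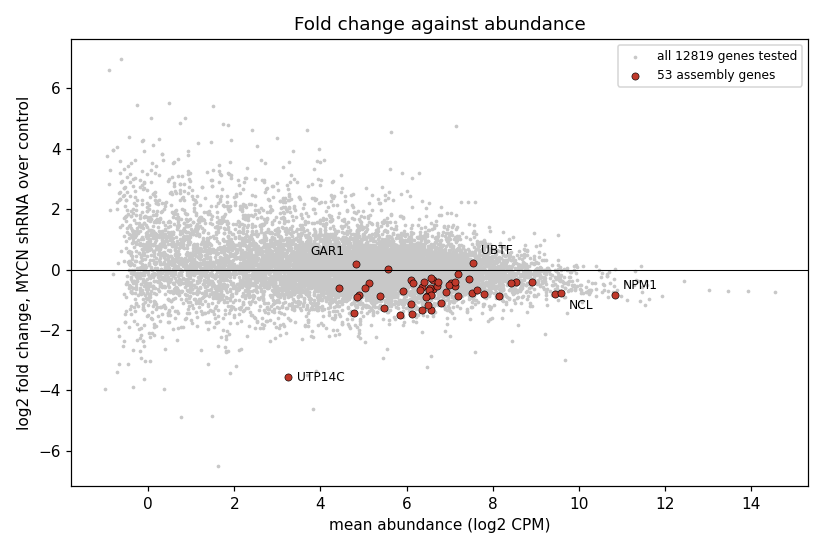
Log2 fold change (y axis) against mean abundance in log2 CPM (x axis); grey points are all genes tested and red points the 53 assembly genes. The red points form a band below 0 from about the middle of the abundance range up to NPM1, with UTP14C below the band and GAR1 and UBTF above it.

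The 3 core proteins of the box C/D particle that are on the list fell together and by little. NOP56, a scaffold of the particle, measured 430.4, 429 and 413 CPM in controls and 312, 312 and 333 CPM with the MYCN shRNA. Its log2 fold change was -0.41 ± 0.039 (adjusted p = 1.4e-12). NOP58, the partner that pairs with NOP56, had 189.6, 189.6 and 198.5 CPM in controls against 153.1, 157.4 and 158.5 CPM with the MYCN shRNA, or -0.30 ± 0.039 as log2 fold change (adjusted p = 6.4e-09). Neither gene overlapped between the groups. Fibrillarin (FBL), the methyltransferase itself, went from 548 ± 15 to 413 ± 15 CPM (SD, n = 3) and matched NOP56 at -0.41. The count ratio of NOP56 to NOP58 was 2.21 ± 0.11 in controls and 2.04 ± 0.061 with the MYCN shRNA (SD, n = 3), with overlapping libraries (exact permutation test, two-sided, p = 0.200).

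The 4 proteins of the box H/ACA particle split. Dyskerin (DKC1), the pseudouridine synthase, measured 383.8, 392.4 and 408.1 CPM in controls and 285.8, 283.5 and 300.8 CPM with the MYCN shRNA, a log2 fold change of -0.44 ± 0.039 (adjusted p = 1.5e-13). NHP2, an RNA-binding subunit, fell further, from 243, 237 and 223 CPM to 137, 132 and 139 CPM (log2 fold change -0.79 ± 0.041, adjusted p = 6.3e-21). For both genes every MYCN shRNA library lay below every control.

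GAR1, the subunit that helps load and release the RNA substrate, went the other way. It measured 25.01, 26.68 and 26.90 CPM in controls and 29.10, 29.98 and 30.32 CPM with the MYCN shRNA, so the groups did not overlap. The log2 fold change was 0.19 ± 0.065 (adjusted p = 0.00979), and without control replicate 1 it was 0.15 (adjusted p = 0.0635). NOP10, the smallest subunit, measured 48.1, 50.5 and 43.5 CPM in controls and 48.3, 48.8 and 46.4 CPM with the MYCN shRNA. These groups overlapped, and the log2 fold change of 0.01 had a 95% interval from -0.10 to 0.13 (adjusted p = 0.833).

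Ratios of raw counts within a library show the same split without any scaling. GAR1 counts were 0.0652, 0.0680 and 0.0659 of DKC1 counts in controls and 0.102, 0.106 and 0.101 with the MYCN shRNA. NOP10 counts were 0.202 ± 0.0098 of NHP2 counts in controls and 0.352 ± 0.018 with the MYCN shRNA (SD, n = 3). Neither ratio overlapped between the groups (exact permutation test, two-sided, p = 0.1 for each, the smallest that 3 against 3 allows). Both pairs were chosen after the single genes had been seen. The exons of NHP2 overlap RMND5B on the opposite strand over 43.8% of its transcript, and RMND5B rose by 0.63 on the log2 scale. Without strand, reads in that overlap cannot be told apart.

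**Figure D4:**
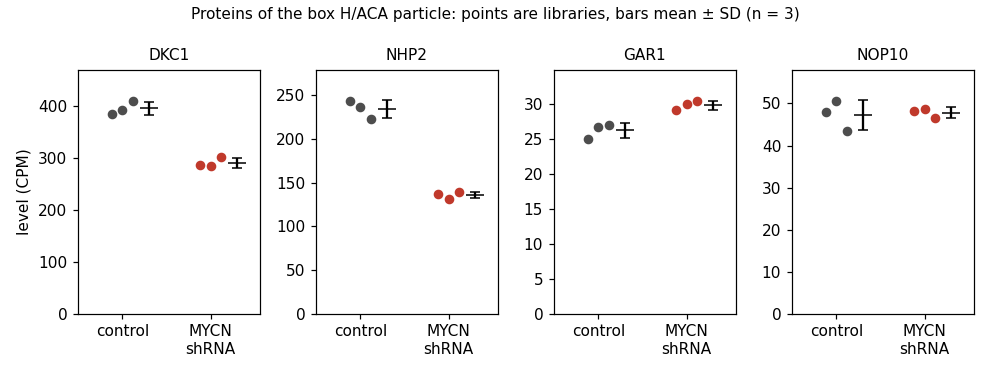
Levels in CPM (y axis, from 0) of the 4 box H/ACA proteins in control and MYCN shRNA libraries; points are libraries and bars are the mean ± SD (n = 3). DKC1 and NHP2 are lower in all MYCN shRNA libraries, GAR1 is slightly higher in all 3, and the NOP10 groups overlap.

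All 16 genes of the small subunit processome and the U3 particle fell; their log2 fold changes ran from -3.55 to -0.13 around a median of -0.61. Both ends of that range depend on the processing: the lowest, UTP14C, on how counts of overlapping genes are taken, and the highest, UTP4, on the scaling. NOL6, a core processome protein, measured 87.6, 90.4 and 81.5 CPM in controls and 33.4, 29.7 and 28.8 CPM with the MYCN shRNA. That is a log2 fold change of -1.50 ± 0.058 (adjusted p = 2.1e-25), or 35.4% of the control level. RRP9, the protein specific to the U3 particle, fell nearly as far, from 105, 108 and 95.3 CPM to 39.7, 35.6 and 36.3 CPM (log2 fold change -1.47 ± 0.055, adjusted p = 7.3e-26). Both genes kept a wide gap between the groups, since the highest MYCN shRNA library was below the lowest control.

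IMP4, which with IMP3 and MPHOSPH10 holds U3 on the precursor RNA, fell by 1.13 on the log2 scale, from 94.9 ± 5.3 to 43.4 ± 1.5 CPM (SD, n = 3). Its partners moved less: IMP3 had a log2 fold change of -0.44 and MPHOSPH10 of -0.34. NAT10, an RNA acetyltransferase that modifies the small subunit RNA, fell by 1.09, from 153 ± 4.2 to 71.8 ± 1.9 CPM (SD, n = 3). The UTP proteins ranged widely. UTP20 (-0.64), UTP15 (-0.60), HEATR1 (-0.54) and UTP18 (-0.44) lay in the middle, together with WDR43 (-0.69), NOC4L (-0.62) and NOP14 (-0.51).

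UTP4, a subunit of the first complex to join the precursor, changed least in this class. It measured 158, 151 and 152 CPM in controls and 147, 137 and 139.6 CPM with the MYCN shRNA. The groups did not overlap and the log2 fold change was -0.13 ± 0.041 (adjusted p = 0.00570), but with library sizes as the only scaling it was 0.06 (adjusted p = 0.204), so its direction rests on the scaling.

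UTP14C had the lowest fold change of the whole list, and most of its transcript is shared with another gene. UTP14 proteins activate a helicase of the processome, and UTP14C is a copy of UTP14A made from its RNA and lying on chromosome 13 (52024691 to 52033600, GRCh38), whereas UTP14A lies on chromosome X. Their coding sequences (GENCODE 29) were identical at 2175 of 2295 aligned bases (94.8%), with runs of up to 169 bases without a difference. The 60 bases with the most differences are shown to give the scale of what separates the copies, with the 9 differing bases in capitals, from coding base 1167 of UTP14A and 1161 of UTP14C.
UTP14A: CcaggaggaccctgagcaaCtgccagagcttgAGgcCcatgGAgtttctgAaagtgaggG
UTP14C: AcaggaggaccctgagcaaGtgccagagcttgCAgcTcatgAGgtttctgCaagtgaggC

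The deposited UTP14C counts were 307.8, 244.5 and 252.2 in controls and 26.9, 49.1 and 0 with the MYCN shRNA. At the depth of the last library a count of 0 would allow up to 0.183 CPM if reads had been counted directly. These counts are estimates for a gene that shares most of its transcript, so the limit may not hold. In CPM the control libraries held 20.2, 16.3 and 17.5 and the MYCN shRNA libraries 1.61, 2.96 and 0, a log2 fold change of -3.55 ± 0.603 (adjusted p = 0.00537). This value was -2.98 without MYCN shRNA replicate 3 and -4.45 without MYCN shRNA replicate 2. With limma-voom it was -5.07 ± 1.496 (adjusted p = 0.0349), and a fit with the replicate number as a block ended the call (adjusted p = 0.0584). UTP14A measured 109, 121 and 110.2 CPM in controls and 76.3, 76.2 and 72.0 CPM with the MYCN shRNA, a log2 fold change of -0.60 ± 0.048 (adjusted p = 6.3e-15). For the sum of both copies the log2 fold change was -0.78 ± 0.046 (adjusted p = 4.4e-19).

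ALG11, a mannosyltransferase gene of protein glycosylation, shares exons with UTP14C on the same strand: they cover 74.2% of the UTP14C transcript in GENCODE 29. ALG11 measured 34.7, 44.2 and 42.9 CPM in controls and 61.1, 58.4 and 61.6 CPM with the MYCN shRNA, so it was higher in all 3 libraries (log2 fold change 0.57 ± 0.064, adjusted p = 9.6e-10). Added together, UTP14C and ALG11 measured 54.9, 60.5 and 60.4 CPM in controls and 62.7, 61.4 and 61.6 CPM with the MYCN shRNA. The log2 fold change of this sum was 0.08 ± 0.052 (edgeR, adjusted p = 0.164), so the decrease given for UTP14C alone was not present in the pair. This sum was chosen after the data were seen.

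**Figure D5:**
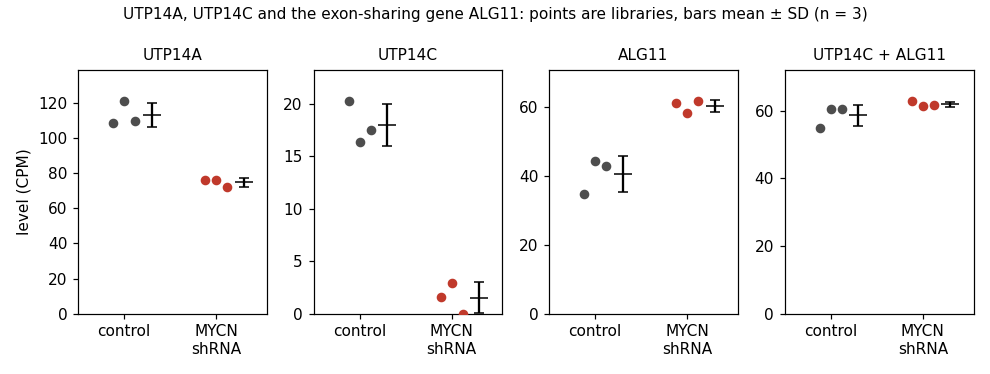
Levels in CPM (y axis, from 0) of UTP14A, UTP14C, ALG11 and the sum of UTP14C and ALG11; points are libraries and bars are the mean ± SD (n = 3). UTP14C is near 0 with the MYCN shRNA while ALG11 is higher, and their sum lies at 58.6 ± 3.2 in controls and 61.9 ± 0.68 with the MYCN shRNA.

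The 5 factors of later small subunit assembly all fell, and the median of their log2 fold changes was -0.75. RRP12, which takes part in the export of both subunits, measured 136, 147 and 129 CPM in controls and 55.1, 51.3 and 57.9 CPM with the MYCN shRNA. Its log2 fold change was -1.33 ± 0.051 (adjusted p = 5.0e-25). TSR1, a GTPase-like factor bound to late small subunit particles, had -0.88, and NOB1, the nuclease that makes the final cut of the small subunit RNA, had -0.75. RIOK1, a kinase of the last steps, had -0.45. BYSL (bystin) changed least, from 79.6, 76.4 and 76.6 CPM to 61.2, 57.9 and 64.1 CPM (log2 fold change -0.35 ± 0.050, adjusted p = 5.8e-08), still without overlap between the groups.

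The PeBoW complex, named for PES1, BOP1 and WDR12, is needed for the processing of the large subunit RNA, and its 3 genes fell to different degrees. WDR12 measured 118, 128 and 129.9 CPM in controls and 58.2, 54.1 and 55.8 CPM with the MYCN shRNA, a log2 fold change of -1.16 ± 0.049 (adjusted p = 3.7e-24). PES1 went from 115 ± 3.2 to 62.7 ± 3.3 CPM (SD, n = 3; log2 fold change -0.88). BOP1 went from 101.9, 101.6 and 91.5 CPM to 68.2, 64.8 and 63.0 CPM (log2 fold change -0.59 ± 0.050, adjusted p = 4.1e-14). No MYCN shRNA library of the 3 genes reached the lowest control.

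The 15 genes of large subunit assembly and export all fell, with a median of -0.80. NOP16, a small protein of the early large subunit particles, measured 40.5, 41.6 and 40.4 CPM in controls and 14.5, 13.9 and 17.0 CPM with the MYCN shRNA. Its log2 fold change of -1.43 ± 0.071 (adjusted p = 1.5e-21) left 37.0% of the control level. RRS1, which helps bring the 5S RNA into the particle, fell by 1.27, from 64.0 ± 2.3 to 26.5 ± 0.60 CPM (SD, n = 3). NOC3L (-0.91), RRP1B (-0.88), WDR74 (-0.87), EBNA1BP2 (-0.83) and PPAN (-0.83) followed. PPAN is uncertain, since 87.3% of its transcript is shared with the annotated read-through gene PPAN-P2RY11.

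The nucleolar GTPases GNL3 (nucleostemin) and GNL2 had log2 fold changes of -0.80 and -0.55. NMD3, the adaptor that takes large subunits out of the nucleus, went from 75.7 ± 2.9 to 45.9 ± 3.9 CPM (SD, n = 3; log2 fold change -0.72). NOP2, an RNA methyltransferase, and NIP7 both had -0.68, and NOC2L and BRIX1 both had -0.41. RRP1 changed least, from 105.7, 106.8 and 99.1 CPM to 89.7, 83.1 and 83.2 CPM (log2 fold change -0.28 ± 0.047, adjusted p = 7.5e-07). RRP1B, its paralogue on the same chromosome, stood at 359.7, 362 and 381.6 CPM in controls and 205.1, 198.7 and 196.5 CPM with the MYCN shRNA.

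The proteins that organise the nucleolus and its transcription gave both the most abundant transcripts and the clearest exception. Nucleophosmin (NPM1), the main chaperone of the granular layer of the nucleolus, measured 2325, 2414 and 2350 CPM in controls and 1292, 1298 and 1348 CPM with the MYCN shRNA (log2 fold change -0.85 ± 0.040, adjusted p = 2.6e-22). GENCODE 29 names 45 pseudogenes for NPM1, and how reads shared with them were counted is unknown. Nucleolin (NCL), which binds the young precursor RNA, measured 919, 976 and 1063 CPM in controls and 557, 562 and 593 CPM with the MYCN shRNA (log2 fold change -0.79 ± 0.044, adjusted p = 1.8e-19). NOLC1, a chaperone of small nucleolar particles, went from 897 ± 11 to 514 ± 2.4 CPM (SD, n = 3; log2 fold change -0.80). The groups of all 3 genes were far apart.

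MYBBP1A, a nucleolar protein that represses transcription in several settings, fell most in this class. It measured 122, 120.7 and 113 CPM in controls and 48.6, 48.1 and 45.2 CPM with the MYCN shRNA (log2 fold change -1.33 ± 0.049, adjusted p = 5.3e-26). LYAR, a zinc finger protein of the nucleolus, had -0.92, and TCOF1 (treacle), which serves RNA polymerase I, had -0.42. UBTF, the architectural factor that opens ribosomal DNA for RNA polymerase I, had the highest fold change of the 53, with GAR1 next. It measured 180.6, 176 and 164 CPM in controls and 196, 199 and 206 CPM with the MYCN shRNA, so every MYCN shRNA library was above every control (log2 fold change 0.21 ± 0.041, adjusted p = 1.9e-05). Over the settings tried its log2 fold change ran from 0.16 to 0.39. An antisense gene, AC003102.1, overlaps 216 bases (4.3%) of its transcript.

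Per kilobase of 1 annotated transcript, NPM1 was also the highest of the 53 in both groups, at 1344 CPM per kilobase in controls and 747 with the MYCN shRNA. FBL followed with 473 and 356, then NHP2 with 271 and 157 and NCL with 244 and 141 CPM per kilobase. The order of these 4 was the same in both groups. Lengths come from GENCODE 29 and not from the transcripts these cells make, so neighbours in this order may change places with another choice of transcript.

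Exons of 25 of the 53 genes overlap another annotated gene. The 28 without such an overlap had a median log2 fold change of -0.61, with 26 lower, 1 higher and 1 not called, and the 25 with one had -0.79, with 24 lower and 1 higher. On the same strand, overlap covered 83.5% of the NOP2 transcript (AC006064.6), and how reads shared there were counted is unknown. On the opposite strand it covered 39.5% of the transcript of IMP3 (SNX33) and 24.8% of that of HEATR1 (LGALS8). Counts that were not whole numbers (any decimal in any library) appeared in 10 of the 53 genes (18.9%), 8 of them with overlapping exons, and in 20.8% of all tested genes. AGCACAA or GTGGATC, 7-base sequences singled out earlier from the fold changes of these same libraries, lie in the transcript of 17 of the 53 genes (32.1%) against 38.9% of tested genes. All 17 were called lower, with a median of -0.83, and of the other 36 genes 33 were, with a median of -0.64. Counting the 3′ untranslated region alone, 6 genes carried either sequence (median -1.02) and 47 did not (median -0.62). The 6 include UTP14C, whose value of -3.55 depends on how counts of overlapping genes are taken. No share over all tested genes is given for this region. Among all tested genes, 41.1% of carriers in the whole transcript and 35.9% of the others were called lower. Both sequences were chosen from these data, so the split is no independent evidence, and their part in the result was not tested.

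Assembly factors outside the list moved in the same direction with more exceptions. Of 43 other tested genes of small subunit assembly, 31 were called lower, 5 higher and 7 not called, with a median log2 fold change of -0.49. The helicase gene DDX10 had -1.37 and the processome gene WDR3 had -1.19, while NOL11, a partner of UTP4, rose by 0.55, from 111 ± 5.7 to 162 ± 2.8 CPM (SD, n = 3), and the helicase gene DDX52 by 0.25. Of 49 other genes of large subunit assembly, 42 were called lower, 2 higher and 5 not called, with a median of -0.53. The helicase gene DDX21 fell by 1.12, from 642 ± 19 to 296 ± 12 CPM (SD, n = 3), and NOP53 fell by 1.01, whereas NVL (0.26) and EFL1 (0.17), an ATPase and a GTPase that release factors from the particle, rose.

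Markers of the labelled cell type were present. The retinal factors CRX, at 217 ± 11 and 278 ± 6.2 CPM, and OTX2, at 1078 ± 26 and 680 ± 9.4 CPM (SD, n = 3, control and MYCN shRNA), were abundant, and of 10 photoreceptor and retinoblastoma markers 7 were called higher and 3 lower, with a median log2 fold change of 1.10. The cone and photoreceptor genes THRB (2.45), PDE6H (1.89), ARR3 (1.80), RXRG (1.56) and RCVRN rose most, RCVRN from 8.72 ± 0.77 to 25.6 ± 1.7 CPM (SD, n = 3). NEUROD1 (-0.74) fell most. Summed over the 6 of 7 pigment epithelium markers in the table, the level was 3.74 to 3.81 CPM in controls and 11.3 to 13.2 with the MYCN shRNA, with RPE65 at 0.244 and 4.72 CPM and TTR at or near 0. Summed over the 5 of 7 fibroblast and vessel markers in the table it was 2.29 to 2.67 and 5.37 to 6.66 CPM, with DCN at or near 0. Blood markers summed to 0.893 to 1.60 CPM over all 6 libraries. Of 6 glial markers GLUL and VIM, which other cells also express, made up nearly the whole sum, while GFAP, AQP4 and S100B were at or near 0. GLUL fell from 837 ± 10 to 655 ± 11 CPM and VIM rose from 329 ± 17 to 528 ± 5.4 CPM (SD, n = 3). SLC1A3 was not called. Of 22 proliferation genes 12 were called lower (54.5%) and 8 higher (36.4%), with a median of -0.18. Over all tested genes these shares were 37.9% and 38.0%. The part of these differences in the fall of the assembly genes was not tested, and in bulk RNA fewer cells of a type and less RNA per cell cannot be told apart.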

How the data were processed

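Poly(A) RNA of 3 control and 3 MYCN shRNA libraries was sequenced, and the authors deposited estimated counts per gene symbol, per the file header, which are not scaled between libraries. The build is GRCh38 per the submitters' processing notes; which aligner, counter, strand setting or gene annotation was used is not stated there. The table has 17035 rows; the 22 that name no gene carry no numbers and were dropped. Depth was 15490263 to 16078416 counts per library. The CPM limit given for UTP14C covers counting error only. The 95% interval of a log2 fold change comes from the edgeR fit described below and includes the spread between libraries. Groups and replicate numbers came from the labels. No replicate pair agreed within sampling noise (chi-square per degree of freedom 1.73 to 4.23), so each library was counted once.

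Estimated counts were rounded, filtered with filterByExpr (minimum 10 counts, 12819 genes) and tested with edgeR 4.0.16 in R 4.3.3 (robust quasi-likelihood F-test, TMM, group only). P-values were adjusted by Benjamini-Hochberg over all tested genes, and standard errors were derived from the F statistic. P-values measure the spread between these libraries. Alternatives were DESeq2 1.42.0, limma-voom (limma 3.58.1), RLE, upper quartile and library size scaling, other filters, a replicate block, summed copies, a 2-fold minimum and omission of single libraries. On simulated data the fit recovered 71.6% of 1.2-fold, 89.6% of 1.5-fold and 96.9% of 2-fold changes. There were 11 false calls in that test of 12734 genes. Far fewer genes were changed there than were called in these data, so it does not test the scaling.

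Members, roles and lists were chosen with earlier results of these data known, so counts over a list are descriptions without a list test. Every member may be named. Values in each library are given for the lowest and highest member of each role, members that rose or were not called, and UTP14A and UTP14C, and beyond this rule for NOL6, RRP9, DKC1, RRP1B, NPM1 and NCL. For the lists of other assembly factors, small nucleolar particle helpers and exosome genes, the 2 genes with the smallest p in each direction are named. No proliferation gene is named. Retinal markers, RPE65, GLUL, VIM, RMND5B, ALG11 and the markers near 0 were named after their values were seen. Positions, transcripts and overlaps came from GENCODE 29 (GRCh38) and promoters from RefSeq, matched by symbol. Coding sequences were aligned globally with Biopython 1.88.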

Additional observations from a re-analysis of the deposited data

How the results depend on the processing

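Across the scalings, filters, tests and left-out libraries tried, 49 or 50 of the 53 genes were called lower, and 50 with each library left out in turn. Called higher were 2 genes, 3 under scaling by library size alone, and 1 to 2 when a library was left out: without control replicate 1, GAR1 was no longer called. When only library sizes were used for scaling, the median of all tested genes moved from 0.00 to 0.19 and that of the list from -0.68 to -0.50. Under this scaling UTP4 turned to 0.06 (adjusted p = 0.204) and NOP10 was called higher (0.20, adjusted p = 0.00313). The smallest falls still called there were those of RRP1 (-0.10, edgeR, adjusted p = 0.0471), NOP58 (-0.12), MPHOSPH10 (-0.15) and BYSL (-0.16). A minimum change of 2-fold left 10 of the 53 genes lower and 0 higher, and 673 lower and 1184 higher in the whole table, since the minimum is stricter. UTP14C turned from -3.55 to 0.08 (adjusted p = 0.164) when its counts were added to those of ALG11, and was -5.07 with limma-voom.

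Same-numbered libraries deviated together with correlations of 0.131, 0.115 and 0.0592, and not every one passed 0.1, so the numbers were not taken to pair the samples, although each library correlated best with its own number. With a replicate block 49 of the 53 genes were called lower and 2 higher, with a median of -0.68, and the call of UTP14C was lost (-3.56, adjusted p = 0.0584); 52 of the 53 genes kept their call. The biological coefficient of variation was 3.34%, so small changes pass the test here, and 3 libraries per group of 1 line limit how far they generalise.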

Other observations

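Factors that assemble small nucleolar particles and the nuclear RNA exosome, which trims ribosomal RNA precursors, were more mixed than the nucleolar genes themselves. Of 13 helper genes of small nucleolar particles 7 were called lower and 3 higher (edgeR, adjusted p under 0.05 over all genes tested). These are 53.8% and 23.1%, against 37.9% and 38.0% of all tested genes, and the median log2 fold change was -0.24. RUVBL1, an ATPase of the assembly chaperone, went from 159 ± 7.0 to 93.9 ± 2.5 CPM (SD, n = 3), and NUFIP1, a platform protein of box C/D assembly, fell by 1.12. SHQ1, a chaperone of dyskerin, rose by 0.23, and COIL, the scaffold of Cajal bodies, by 0.22. Of 14 exosome genes 8 were called lower (57.1%) and 2 higher (14.3%), with a median of -0.27. EXOSC7 fell by 1.44 on the log2 scale and EXOSC5 went from 51.8 ± 2.8 to 23.8 ± 1.7 CPM (SD, n = 3), whereas EXOSC9 (0.21) and C1D (0.17) rose.

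The count ratio of some pairs of partners within a library shifted between the groups. That of NOP56 to NOP58 overlapped between them (2.27, 2.26 and 2.08 in controls against 2.04, 1.98 and 2.10 with the MYCN shRNA). RRP1 counts were 0.294, 0.295 and 0.260 of RRP1B counts in controls and 0.437, 0.418 and 0.423 with the MYCN shRNA. BOP1 counts were 0.895, 0.855 and 0.810 of PES1 counts in controls and 1.03, 1.08 and 1.03 with the MYCN shRNA. RRP9, which binds U3, stood at 0.188 ± 0.0086 of FBL counts in controls and at 0.0903 ± 0.0083 with the MYCN shRNA (SD, n = 3). In none of these 3 ratios did the groups overlap. An exact two-sided permutation test gave p = 0.1 for each, the smallest that 3 against 3 allows. The pairs were chosen after the values of the genes were seen, among 8 ratios computed.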
